A study of Mus musculus with 8 samples.

Results

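Granulocyte-monocyte progenitors and promyelocytes are the marrow cells in which the granule proteases of neutrophils and monocytes are made. They were picked out of droplet single-cell RNA sequencing of mouse bone marrow by their transcripts. A cell passed with at least 500 genes, at least 1000 UMIs (counted mRNA molecules) and under 10% mitochondrial UMIs. It was a member with at least 3 of Elane, Mpo, Prtn3, Ctsg and Ms4a3 detected, at least 0.5% of its UMIs from Elane, Mpo, Prtn3 and Ctsg together, and fewer than 3 of the monocyte genes F13a1, Ms4a6c, Ccr2 and Csf1r. This gave 7045 members among 22078 passing cells, which is 31.9%. The cells were chosen by the measured UMIs of these genes, which are described below and not tested.

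The study is about the part of haematopoietic Gli1 in myelofibrosis driven by mutant JAK2. Irradiated (10.5 Gy) female B6.SJL mice aged 8 to 10 weeks had received marrow of 8-week-old donors that was either Gli1-/- (Gli1 knockout) or wild type. The donor cells carried a retrovirus with JAK2V617F, a constitutively active kinase, or with the unmutated kinase as its control, JAK2WT. The 4 groups are Gli1 knockout JAK2V617F, wild type JAK2V617F, Gli1 knockout JAK2WT and wild type JAK2WT. Per the labels' protocols, marrow was taken 112 days after transplantation, cleared magnetically of CD11b, GR1, TER119, B220 and CD3 positive cells, and sorted as viable lineage-negative cells with and without GFP. GFP marked transduced cells, and the proportion in which the sorted cells were loaded is not stated. Each group is 1 library from 3 pooled mice, so no difference below has a replicate check and none was tested. Untransduced donor cells and surviving recipient cells can be in every library.

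Neutrophils and monocytes descend from a shared granulocyte-monocyte progenitor. At the promyelocyte stage the cells fill primary (azurophil) granules with myeloperoxidase, encoded by Mpo, and with the serine proteases neutrophil elastase (Elane), proteinase 3 (Prtn3) and cathepsin G (Ctsg). Secondary granules, with lactoferrin (Ltf), cathelicidin (Camp) and neutrophil granule protein (Ngp), are made at the next stage, the myelocyte. JAK2 passes on the signals of cytokine receptors in these cells, mainly to STAT5 and STAT3, and Gli1 encodes a zinc finger activator of hedgehog target genes.

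The genes that define the cells lie on several chromosomes (mm10). Elane (chromosome 10, 79886247 to 79888215, plus strand) starts 3073 bases after the end of Prtn3 (79874476 to 79883174, plus strand), and Prss57, a further granule protease gene that the rule did not use, lies 83515 bases from that pair. Mpo lies on chromosome 11 (87793581 to 87804413, plus strand), Ctsg on chromosome 14 (56099881 to 56102574, minus strand) and Ms4a3, a membrane protein gene of this stage, on chromosome 19 (11629496 to 11640851, minus strand). The bases just before annotated exons of the 4 granule genes are shown because these genes define the members. The Prtn3 stretch was placed by the RefSeq start and lies inside the annotated span of the gene given above, not upstream of it. The sequences are RefSeq's (GRCm38.p6), 5′ to 3′ on the gene's strand, and capitals mark GAGGAA, a purine-rich core of the kind that ETS factors such as PU.1 bind.
Elane chr10:79886062-79886246: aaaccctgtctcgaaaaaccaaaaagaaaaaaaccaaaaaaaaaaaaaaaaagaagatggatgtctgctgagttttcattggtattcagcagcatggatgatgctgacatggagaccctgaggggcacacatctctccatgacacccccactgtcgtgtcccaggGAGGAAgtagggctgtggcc
Prtn3 chr10:79879417-79879613: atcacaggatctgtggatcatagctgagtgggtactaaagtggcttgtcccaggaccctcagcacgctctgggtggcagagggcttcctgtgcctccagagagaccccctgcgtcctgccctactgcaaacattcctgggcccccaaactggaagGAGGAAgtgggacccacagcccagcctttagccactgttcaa
Mpo chr11:87793534-87793580: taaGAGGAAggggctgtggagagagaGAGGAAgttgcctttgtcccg
Ctsg chr14:56102575-56102824: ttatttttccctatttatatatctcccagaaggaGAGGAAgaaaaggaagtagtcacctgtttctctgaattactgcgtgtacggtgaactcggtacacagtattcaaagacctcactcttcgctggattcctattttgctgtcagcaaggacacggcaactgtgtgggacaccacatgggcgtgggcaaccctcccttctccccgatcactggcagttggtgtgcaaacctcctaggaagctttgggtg
GAGGAA was searched on both strands in RefSeq windows of 250 bases before to 50 after each start. The windows of all 5 genes of which the rule asks for at least 3 held it, against 28.3% of 32851 windows. The motif AACNG, of the kind MYB binds, was in 4 of 5 and in 80.3% of all windows. The STAT motif TTCNNNGAA was in the Ctsg window, 189 bases before the start, and in 8.30% of all windows. These matches describe letters in a window and no binding was measured.

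Detection of the 5 marker genes of the rule and of Prss57 was taken from unthinned cells, so it rises with the depth of the cell. The rule chose the members by these 5 genes, so their detection describes the members and does not check the name. Among members with at least 5000 UMIs, all 5 genes were detected in 967 of 1014 cells of the Gli1 knockout JAK2V617F library, 633 of 660 of wild type JAK2V617F, 592 of 634 of Gli1 knockout JAK2WT and 591 of 619 of wild type JAK2WT. Prss57 was detected in 81.9% with JAK2V617F and 90.4% with JAK2WT in Gli1 knockout, and 86.1% with JAK2V617F and 86.9% with JAK2WT in wild type members of this depth. Over all members the shares were 59.6% with JAK2V617F and 51.0% with JAK2WT in Gli1 knockout, and 73.1% with JAK2V617F and 28.5% with JAK2WT in wild type members. Members under 5000 UMIs numbered 517 in Gli1 knockout JAK2V617F, 169 in wild type JAK2V617F, 763 in Gli1 knockout JAK2WT and 2669 in wild type JAK2WT, 4118 in all.

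Shallow members included cells that carry markers of other types. In wild type JAK2WT marrow, 342 of 945 T and NK marked cells under 5000 UMIs were members, against 28 of 549 with at least 5000 UMIs. For B marked cells these counts were 304 of 727 and 29 of 581. Granule transcripts were found in cells that should lack them. With every cell thinned to 2000 UMIs, Elane was detected in 81.0% of members and 54.5% of T and NK marked cells in Gli1 knockout JAK2V617F, 85.5% and 41.7% in wild type JAK2V617F, 87.7% and 53.4% in Gli1 knockout JAK2WT, and 95.2% and 67.1% in wild type JAK2WT. Shares of cells and levels are therefore given for the members with at least 5000 UMIs, a limit added after the depth had been seen, beside the counts over all members.

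Members were sequenced to unequal depth. Their median was 15257 UMIs in Gli1 knockout JAK2V617F, 17195 in wild type JAK2V617F, 1987 in Gli1 knockout JAK2WT and 1887 in wild type JAK2WT. The members with at least 5000 UMIs had medians of 23402 UMIs with JAK2V617F and 28568 with JAK2WT in Gli1 knockout, and 19860 with JAK2V617F and 18132 with JAK2WT in wild type members. They held 69.5% of the members' UMIs in wild type JAK2WT and 94.3% to 97.7% in the other libraries. Member UMIs summed to between 14869660 and 25248310 per library. Barcodes shared by the members of any pair of libraries numbered 0 to 2. In the group under 5000 UMIs, the median mitochondrial share was 0.212% in Gli1 knockout JAK2WT, against 1.43% to 2.99% in the other libraries, and in the deeper group it was 1.98% to 2.80% in all 4.

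The share of passing cells that were members turned on depth (parentheses hold 95% intervals, for counting error alone). Over all depths it was 23.6% (22.6 to 24.6) in Gli1 knockout JAK2V617F, 23.02% (21.6 to 24.4) in wild type JAK2V617F, 34.9% (33.5 to 36.4) in Gli1 knockout JAK2WT and 41.2% (40.1 to 42.3) in wild type JAK2WT. Among passing cells with at least 5000 UMIs it was 20.1% (19.0 to 21.2) in Gli1 knockout JAK2V617F, 22.8% (21.3 to 24.3) in wild type JAK2V617F, 21.7% (20.2 to 23.3) in Gli1 knockout JAK2WT and 17.0% (15.8 to 18.3) in wild type JAK2WT. The order of the wild type libraries turned round: the ratio of JAK2V617F to JAK2WT was 0.559 (0.524 to 0.597) over all depths and 1.34 (1.21 to 1.48) among the deeper cells. In Gli1 knockout marrow it was 0.675 (0.635 to 0.718) and 0.926 (0.848 to 1.01).

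Between genotypes the shares lay within 1.5-fold of each other, and their order also turned on depth. With JAK2V617F the ratio of Gli1 knockout to wild type was 1.03 (0.952 to 1.10) over all depths and 0.883 (0.810 to 0.963) among the deeper cells. With JAK2WT it was 0.849 (0.807 to 0.892) over all depths and 1.28 (1.16 to 1.41) among the deeper cells. The depletion of cells bearing CD11b and GR1 and the unstated loading of the sorted cells bear on all of these shares.

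**Figure D1:**
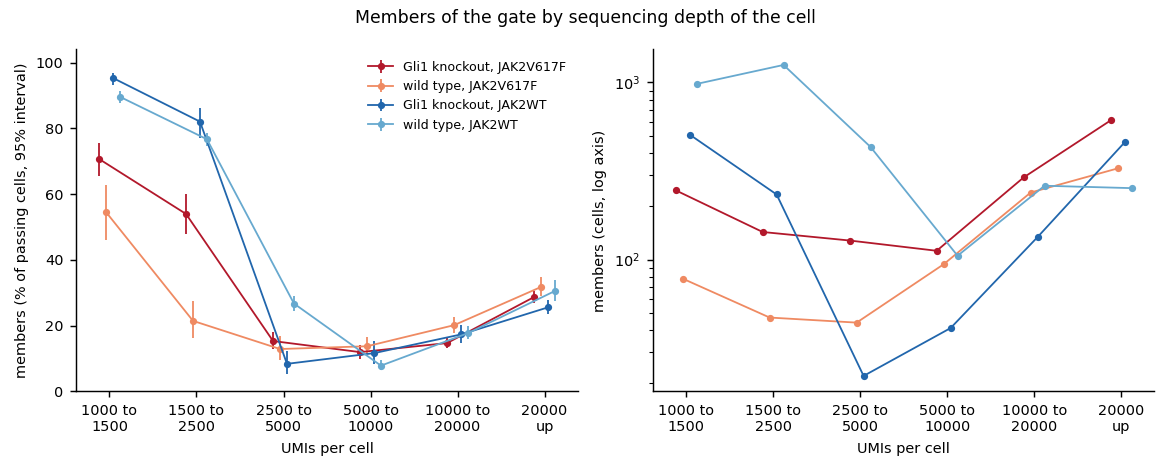
Members by UMIs per cell. The left panel plots the percentage of passing cells that were members in each class of UMIs per cell for the 4 libraries, with 95% counting intervals, and the right panel plots the number of members on a log axis. Between 1000 and 1500 UMIs the share reached 95.3% in Gli1 knockout JAK2WT and 89.6% in wild type JAK2WT, and at 20000 UMIs or more all 4 libraries lay between 25.6% and 31.8%.

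Below 2500 UMIs the JAK2WT libraries stood apart. In the class of 1500 to 2500 UMIs members were 54.0% of cells in Gli1 knockout JAK2V617F and 21.5% in wild type JAK2V617F, against 82.0% in Gli1 knockout JAK2WT and 76.7% in wild type JAK2WT. Above 5000 UMIs the classes of the 4 libraries lay closer together, as the plot of members by UMIs per cell shows.

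The granule genes that chose the members were among their abundant transcripts. In CPM (a gene's UMIs summed over the deeper members, scaled to a common total per library), Elane stood at 7497 in Gli1 knockout JAK2V617F, 6351 in wild type JAK2V617F, 10042 in Gli1 knockout JAK2WT and 13877 in wild type JAK2WT. Mpo stood at 5297 CPM with JAK2V617F and 6998 with JAK2WT in Gli1 knockout, and 4717 with JAK2V617F and 7029 with JAK2WT in wild type members. Prtn3 stood at 6646 CPM with JAK2V617F and 8272 with JAK2WT in Gli1 knockout, and 7587 with JAK2V617F and 10218 with JAK2WT in wild type members, and Ctsg at 3030 CPM with JAK2V617F and 4543 with JAK2WT in Gli1 knockout, and 4233 with JAK2V617F and 3846 with JAK2WT in wild type members. The 4 genes together took a median of 1.59% of a deeper member's UMIs in Gli1 knockout JAK2V617F, 1.90% in wild type JAK2V617F, 2.74% in Gli1 knockout JAK2WT and 3.57% in wild type JAK2WT, with maxima between 8.56% and 12.1%. The JAK2WT libraries were thus richer in members with a high granule share. Values within bins of that share are given for some genes beside the comparisons of the libraries.

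Many cells lay close to the edge of the rule. Members just inside it, with 0.5% to 0.6% of UMIs from the 4 genes, numbered 189 in Gli1 knockout JAK2V617F, 66 in wild type JAK2V617F, 48 in Gli1 knockout JAK2WT and 329 in wild type JAK2WT. Cells just outside, with 0.4% to 0.5%, numbered 229 in Gli1 knockout JAK2V617F, 89 in wild type JAK2V617F, 67 in Gli1 knockout JAK2WT and 393 in wild type JAK2WT. The monocyte genes kept out between 276 and 671 cells per library.

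Beyond the genes of the rule, members shared a set that was higher than in the other passing cells of every library. The set is described without a test, because the rule compared the same cells. Cebpe, the transcription factor that drives the step from promyelocyte to myelocyte, led it. It stood at 157 CPM in members and 27.3 in other cells in Gli1 knockout JAK2V617F, 161 and 33.6 in wild type JAK2V617F, 164 and 14.5 in Gli1 knockout JAK2WT, and 180 and 17.6 in wild type JAK2WT, with log2 ratios of 1.97 to 2.83. Prss57 followed with 210 to 310 CPM in members and log2 ratios of 1.60 to 2.37. Alas1, the enzyme that begins haem synthesis (myeloperoxidase carries haem), had log2 ratios of 1.58 to 2.12. Gstm1, a glutathione transferase gene, had 1.45 to 2.20 and Cd63, a granule membrane tetraspanin gene, 1.25 to 3.29. Nkg7, a granule membrane protein gene, had 1.23 to 2.43, and Cpa3, a protease gene of mast cells and their progenitors, 1.30 to 1.94. Pde4d, Fcgr3, Cst7, Igsf6 and Atp6ap2 completed the leading 12.

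**Figure D2:**
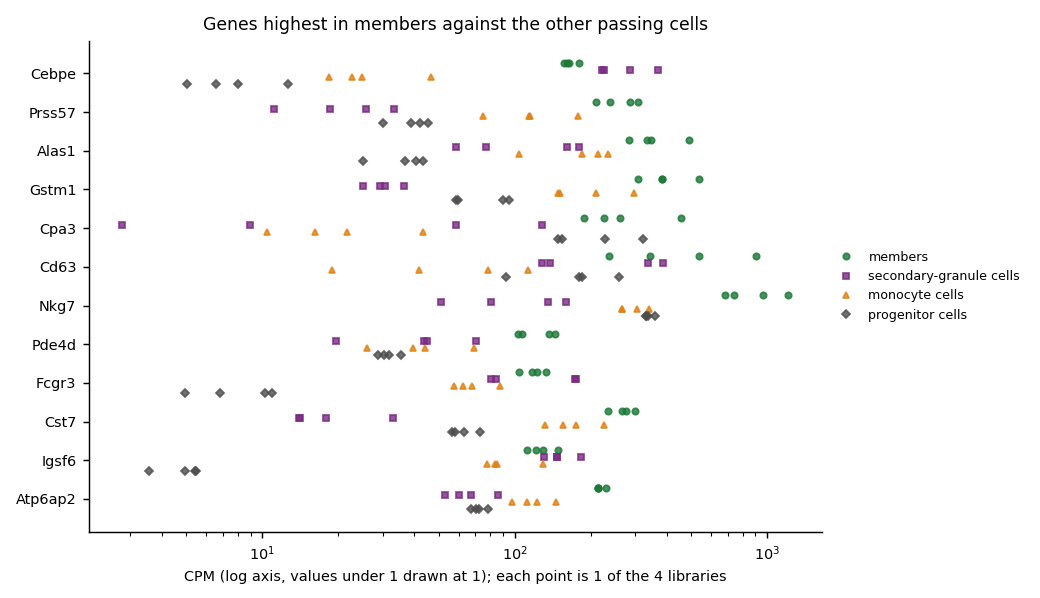
The 12 genes most raised in members over other passing cells, in cells with at least 5000 UMIs. Each point is the CPM of 1 library on a log axis, for members, secondary-granule cells, monocyte cells and progenitor cells. Cebpe lay between 157 and 180 CPM in members and between 5.02 and 12.6 CPM in progenitor cells.

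Secondary-granule cells (at least 3 of Ltf, Camp, Ngp, Lcn2 and Chil3, not members), monocyte cells (at least 3 of the 4 monocyte genes) and progenitor cells (Cd34 and Kit detected, granule share under 0.5%) were set beside the members. The monocyte cells had no granule limit. With JAK2V617F, 671 of 917 in Gli1 knockout and 276 of 324 in wild type met the rule's granule limits. With JAK2WT, 562 of 911 in Gli1 knockout and 580 of 1065 in wild type did. Their Prtn3 stood at 6124 CPM in Gli1 knockout and 7155 in wild type with JAK2V617F, against 6646 and 7587 in members. With JAK2WT it stood at 4932 and 4441 CPM, against 8272 and 10218. Cebpe was higher in secondary-granule cells, at 222 CPM in Gli1 knockout JAK2V617F, 287 in wild type JAK2V617F, 226 in Gli1 knockout JAK2WT and 369 in wild type JAK2WT. It stood at 18.4 to 46.7 CPM in the monocyte cells and at 5.02 to 12.6 CPM in the progenitor cells of the 4 libraries. Igsf6 was also higher in secondary-granule cells of every library, at 131 to 183 CPM against 112 to 148 in members. In wild type JAK2V617F it was higher in the monocyte cells as well (130 CPM against 122). With JAK2V617F Fcgr3 was higher in secondary-granule cells too, at 174 CPM against 117 in Gli1 knockout and 175 against 105 in wild type. With JAK2WT it was lower there. Cpa3 was higher in the progenitor cells of wild type JAK2V617F alone (324 CPM against 262). The secondary-granule cells numbered 298 in Gli1 knockout JAK2V617F, 191 in wild type JAK2V617F, 31 in Gli1 knockout JAK2WT and 88 in wild type JAK2WT.

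Members formed a continuum. When the deeper members were binned by the share of their UMIs from the 4 granule genes, and CPM taken over the UMIs outside these 4, Ms4a3, Cebpe, Gfi1 and Alas1 climbed with it and Cd34, Sox4 and Irf8 declined. The 4 bins up to 8% held 75 to 352 cells per library. In wild type JAK2WT, Ms4a3 stood at 431 in the bin of 0.5% to 1% and at 2305 in the bin of 4% to 8%. Cebpe stood at 42.4 and 248 in these bins, and Gfi1, a repressor needed for neutrophil fate, at 12.7 and 99.7. The order of the bins was alike in the other libraries: Cebpe stood at 53.3 and 231 in Gli1 knockout JAK2V617F, 70.3 and 251 in wild type JAK2V617F and 31.6 and 224 in Gli1 knockout JAK2WT. Alas1 was also higher in the last bin than in the bin of 0.5% to 1%, with 750 against 94.3 in Gli1 knockout JAK2V617F, 716 against 94.6 in wild type JAK2V617F, 874 against 79.2 in Gli1 knockout JAK2WT and 395 against 61.9 in wild type JAK2WT.

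Not every gene of the stage climbed. Ctsc, the cathepsin C that activates the granule proteases, stood at 52.1 in the bin of 4% to 8% and 66.8 in that of 0.5% to 1% in Gli1 knockout JAK2V617F, 26.8 and 53.2 in wild type JAK2V617F, 35.4 and 47.9 in Gli1 knockout JAK2WT, and 21.8 and 39.8 in wild type JAK2WT. Cebpa, a transcription factor gene of the granulocyte-monocyte progenitor, lay between 61.9 and 107 over all bins and libraries.

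Cd34, Sox4 and Irf8 ran the other way from Ms4a3. Cd34, a surface protein gene of stem and progenitor cells, stood at 333 in the bin of 0.5% to 1% and 72.9 in the bin of 4% to 8% in Gli1 knockout JAK2V617F, 277 and 51.1 in wild type JAK2V617F, 374 and 57.2 in Gli1 knockout JAK2WT, and 232 and 22.5 in wild type JAK2WT. Sox4, a progenitor transcription factor gene, stood at 252 and 72.9 in Gli1 knockout JAK2V617F, 184 and 39.9 in wild type JAK2V617F, 289 and 55.0 in Gli1 knockout JAK2WT, and 172 and 24.9 in wild type JAK2WT. Irf8, which directs the monocyte and dendritic fate, was 46.2 and 12.5 in Gli1 knockout JAK2V617F, 30.3 and 4.58 in wild type JAK2V617F, 84.8 and 17.9 in Gli1 knockout JAK2WT, and 157 and 15.0 in wild type JAK2WT. The bins are cut on the members' own transcripts and so describe how genes go together, not an order in time.

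**Figure D3:**
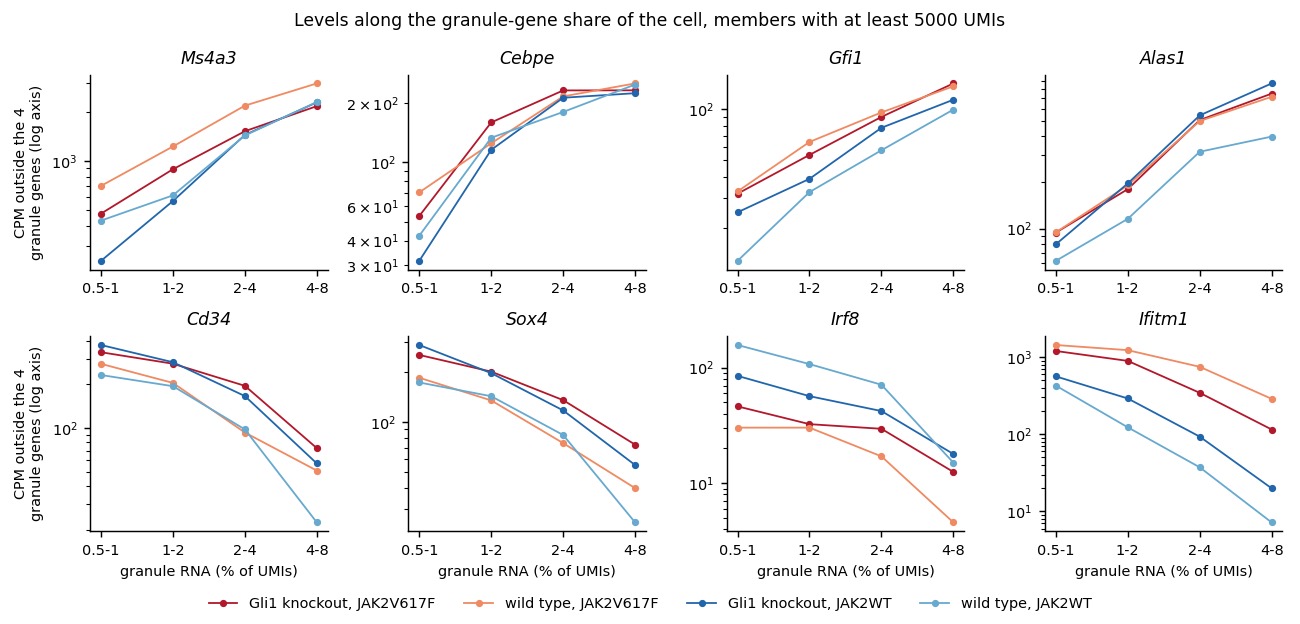
Genes along the granule share. Each panel plots 1 gene's CPM over the UMIs outside Elane, Mpo, Prtn3 and Ctsg, for the 4 libraries, against the bin of the granule share (0.5% to 1%, 1% to 2%, 2% to 4% and 4% to 8% of UMIs) in members with at least 5000 UMIs. Ms4a3, Cebpe, Gfi1 and Alas1 climb from the bin of 0.5% to 1% to the last bin in every library, and Cd34, Sox4, Irf8 and Ifitm1 decline.

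Transcripts of the cell cycle were common in members. With each deeper member thinned to 2000 UMIs, a median of 7 UMIs in Gli1 knockout JAK2V617F, 7 in wild type JAK2V617F, 7 in Gli1 knockout JAK2WT and 6 in wild type JAK2WT came from 28 genes of S phase and DNA replication. At least 3 UMIs from 30 genes of G2 and mitosis were held by 58.9% (55.8 to 61.9) of members in Gli1 knockout JAK2V617F, 70.9% (67.3 to 74.4) in wild type JAK2V617F, 70.0% (66.3 to 73.6) in Gli1 knockout JAK2WT and 63.3% (59.4 to 67.1) in wild type JAK2WT. In progenitor cells that share was 47.1% to 57.0%. The mean of these UMIs ran the other way and was higher in progenitor cells of every library. With JAK2V617F it was 4.71 in members and 5.17 in progenitor cells in Gli1 knockout, and 5.63 and 6.69 in wild type. With JAK2WT it was 6.02 and 7.49 in Gli1 knockout, and 4.50 and 6.26 in wild type. The S phase median of progenitor cells was 6 to 7 UMIs. These shares and means describe summed transcripts and assign no cell to a phase.

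With JAK2V617F in wild type marrow, members had higher levels of the interferon-induced membrane protein gene Ifitm1, of the kinase gene Pim1, a target of STAT5, and of genes of glycolysis, ribosome biogenesis and cholesterol synthesis. They had lower levels of Fcnb, a ficolin gene of late granules, of the surface antigen gene Ly6c2 and of Irf8. A gene was measured if its higher library reached 20 CPM and 30 counts and was called past 1.5-fold, on log2 ratios with 10 CPM added to each value. Over all members 554 genes were higher (9.29% of 5963 measured) and 412 lower (6.91%). Over the deeper members 469 were higher (8.09% of 5797) and 239 lower (4.12%). The median log2 ratio of all genes was 0.10 and 0.11. Scaled by the median of ratios in place of totals, the counts turned round, to 324 higher and 590 lower over all members and 246 higher and 385 lower over the deeper ones. The direction of small changes therefore depends on the scaling, and the all-gene median is given beside the medians of gene groups.

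Ifitm1 set the JAK2V617F libraries apart. Its level in the deeper members was 682 CPM (671 to 692) in Gli1 knockout JAK2V617F, 947 (931 to 963) in wild type JAK2V617F, 177 (171 to 183) in Gli1 knockout JAK2WT and 75.6 (70.6 to 80.8) in wild type JAK2WT. Both JAK2V617F libraries were above both JAK2WT libraries. The log2 ratio of JAK2V617F to JAK2WT was 3.48 in wild type and 1.89 in Gli1 knockout members. It held at each granule share, at 1.72, 3.22, 4.00 and 4.11 in wild type and 1.08, 1.58, 1.78 and 2.07 in Gli1 knockout members, from the bin of 0.5% to 1% to that of 4% to 8%. Thinned to 2000 UMIs, Ifitm1 was detected in 51.0% of members and 25.1% of T and NK marked cells in Gli1 knockout JAK2V617F, 63.2% and 25.0% in wild type JAK2V617F, 24.1% and 3.11% in Gli1 knockout JAK2WT, and 10.3% and 4.41% in wild type JAK2WT. Unthinned, the share was 90.2% with JAK2V617F and 67.7% with JAK2WT in Gli1 knockout, and 93.0% with JAK2V617F and 35.1% with JAK2WT in wild type members.

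Pim1, whose kinase supports survival downstream of cytokine receptors, followed the same order. It stood at 183 CPM (178 to 189) in Gli1 knockout JAK2V617F, 204 (197 to 212) in wild type JAK2V617F, 97.5 (93.1 to 102) in Gli1 knockout JAK2WT and 55.3 (51.1 to 59.8) in wild type JAK2WT. The log2 ratio of JAK2V617F to JAK2WT was 1.72 in wild type members, and 0.87 over all members, which include the T, NK and B marked cells of low depth. In Gli1 knockout members it was 0.84. Within the bins it was 1.06, 1.25, 1.68 and 1.92 in wild type and 0.40, 0.65, 0.73 and 0.69 in Gli1 knockout members. Thinned to 2000 UMIs, Pim1 was detected in 30.9% of members and 37.3% of T and NK marked cells in Gli1 knockout JAK2V617F, 28.8% and 40.0% in wild type JAK2V617F, 16.9% and 42.9% in Gli1 knockout JAK2WT, and 12.3% and 19.4% in wild type JAK2WT. Unthinned, the share in members was 51.1% to 86.8%. The share in T and NK marked cells was thus the higher one in every library. Whether those cells express Pim1 themselves was not tested, so their share does not decide how far its spread over members is expression. How much of the members' Pim1 was free RNA was not tested. The list of 24 JAK-STAT targets had 15 measured genes in the wild type comparison, of which 4 were higher past 1.5-fold and 0 lower, with a median log2 ratio of 0.27 beside 0.11 for all genes. These were Pim1, Id1 (1.00), Myc (0.92) and the transcription factor gene Junb (0.85). Cish, Socs1, Socs2 and Socs3, the feedback inhibitors of the pathway, were below the limit for a measured gene. Of the 18 JAK-STAT target genes with a RefSeq window, 4 held TTCNNNGAA (Cish, Socs3, Bcl6 and Irf1), and Pim1 and Junb were not among them.

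**Figure D4:**
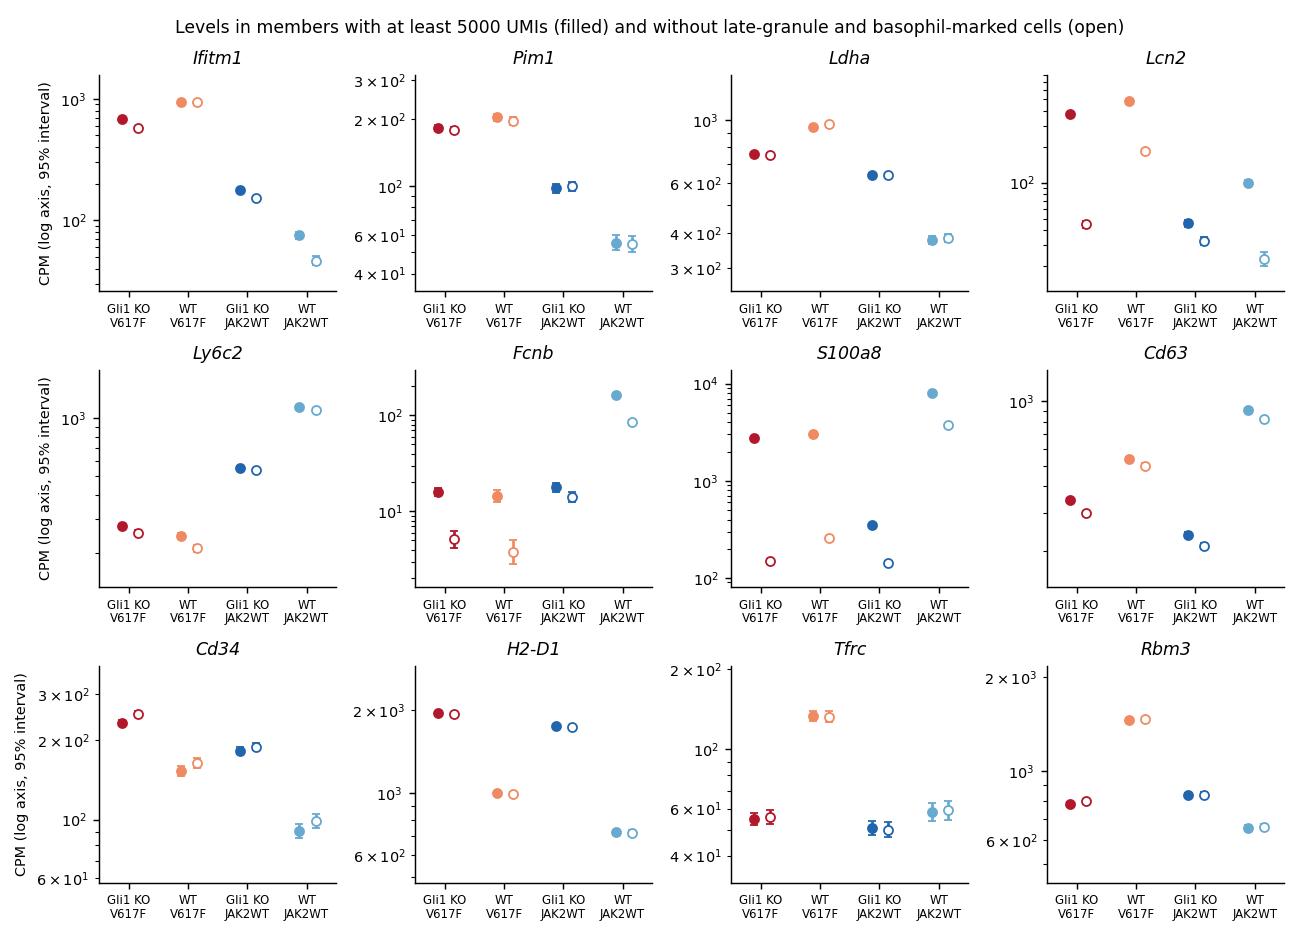
Levels of 12 genes in the members of the 4 libraries, in CPM on a log axis with 95% counting intervals. Filled points are members with at least 5000 UMIs and open points the same without cells marked by secondary-granule or basophil genes. Ifitm1 and Pim1 are higher in both JAK2V617F libraries. Lcn2 and S100a8, from the list of secondary and later granule genes, move most when the marked cells are left out.

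Metabolic genes were higher with JAK2V617F in wild type members. Of 14 measured genes of glycolysis, 10 were higher past 1.5-fold and 0 lower, with a median log2 ratio of 0.65. Ldha, which makes lactate from pyruvate, stood at 946 CPM (930 to 962) with JAK2V617F and 377 (366 to 389) with JAK2WT (log2 ratio 1.30), Pfkl of the committed step had a log2 ratio of 0.97, and Pkm, which makes pyruvate, 0.83. In Gli1 knockout members Ldha stood at 761 CPM (751 to 773) with JAK2V617F and 639 (628 to 651) with JAK2WT, and 0 of 15 glycolysis genes passed 1.5-fold in either direction. Of 13 measured genes of cholesterol synthesis, 7 were higher in wild type members (median 0.63), led by Idi1 (1.05) and Cyp51 (0.90), and 0 of 8 passed in Gli1 knockout members. Of 23 MYC and ribosome biogenesis genes, 8 were higher in wild type members (median 0.51), with Myc itself at 176 CPM with JAK2V617F and 88.1 with JAK2WT, and 0 of 23 passed in Gli1 knockout members (median 0.03). Under scaling by the median of ratios each of these log2 ratios in wild type members is lower by about the all-gene median of 0.11. Of 27 genes of oxidative phosphorylation 0 passed in either comparison. Gli1 knockout JAK2WT over wild type JAK2WT had 3 of 14 glycolysis genes higher (median 0.48), 2 of 23 MYC and ribosome biogenesis genes (0.32) and 0 of 7 cholesterol genes (0.14). Between genotypes with JAK2V617F 0 of 15 glycolysis genes passed (median -0.18) and 0 of 23 MYC and ribosome biogenesis genes (-0.15). Glycolysis and cholesterol genes were not taken within the bins of granule share.

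Ly6c2, Irf8 and Cd74 were lower with JAK2V617F in wild type members. Ly6c2 stood at 274 CPM (268 to 281) in Gli1 knockout JAK2V617F, 244 (236 to 253) in wild type JAK2V617F, 553 (542 to 564) in Gli1 knockout JAK2WT and 1148 (1128 to 1168) in wild type JAK2WT. Its log2 ratio of JAK2V617F to JAK2WT was -2.19 in wild type and -0.98 in Gli1 knockout members, and reads of its close copy Ly6c1 could be counted with it. Irf8 stood at 31.9 CPM with JAK2V617F and 43.0 with JAK2WT in Gli1 knockout, and 21.5 with JAK2V617F and 59.7 with JAK2WT in wild type members. Its log2 ratio in wild type members was -1.15, and -2.25 over all members, and it was lower within every bin (-2.05, -1.54, -1.58 and -0.78). Cd74, the invariant chain of MHC class II and a receptor of the cytokine MIF, stood at 19.8 CPM with JAK2V617F and 86.1 with JAK2WT in Gli1 knockout, and 4.75 with JAK2V617F and 96.1 with JAK2WT in wild type members. It is abundant in B cells and monocytes, and B marked cells were among the members. Of the 10 monocyte markers 5 were measured, and 3 of them, F13a1 (-0.63), Ly86 (-1.45) and Mpeg1 (-1.45), were lower with JAK2V617F in wild type members and 0 higher. Ms4a6c and Ccr2, which the rule used with F13a1 and Csf1r to leave cells out, went the other way: Ms4a6c was detected in 65.0% of the deeper wild type members with JAK2V617F and 48.8% with JAK2WT, and Ccr2 in 21.5% with JAK2V617F and 10.3% with JAK2WT. Summed CPM of the 10 monocyte markers was 380 in Gli1 knockout JAK2V617F, 279 in wild type JAK2V617F, 280 in Gli1 knockout JAK2WT and 388 in wild type JAK2WT. For the B cell list it was 41.9 CPM with JAK2V617F and 52.8 with JAK2WT in Gli1 knockout, and 38.2 with JAK2V617F and 103 with JAK2WT in wild type members. For the T and NK list it was 22.5 CPM with JAK2V617F and 16.0 with JAK2WT in Gli1 knockout, and 4.34 with JAK2V617F and 101 with JAK2WT in wild type members. Their part in these results was not tested.

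Genes of other cell types moved with the libraries too. Erythroid markers summed to 78.4 CPM in Gli1 knockout JAK2V617F, 862 in wild type JAK2V617F, 62.5 in Gli1 knockout JAK2WT and 32.9 in wild type JAK2WT members, and plasma cell markers to 475 CPM with JAK2V617F and 13291 with JAK2WT in Gli1 knockout, and 275 with JAK2V617F and 2042 with JAK2WT in wild type members. Jchain, the joining chain of secreted antibodies, stood at 20.3 CPM with JAK2V617F and 956 with JAK2WT in Gli1 knockout, and 4.06 with JAK2V617F and 208 with JAK2WT in wild type members. The part of such RNA in the levels of other genes was not tested.

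In Gli1 knockout marrow fewer genes passed 1.5-fold with JAK2V617F. Over all members 66 genes were higher (1.17% of 5630) and 19 lower (0.337%), and over the deeper members 63 were higher (1.12% of 5629) and 20 lower (0.355%). The difference in number from the wild type comparison was not tested. The leading genes included those of secondary granules, S100 proteins and eosinophils. Ngp stood at 791 CPM (780 to 802) with JAK2V617F and 44.9 (42.0 to 48.1) with JAK2WT, a log2 ratio of 3.87. Ltf followed at 3.30, S100a6 at 3.28, Prg2, the eosinophil major basic protein gene, at 3.14 and S100a8, a subunit of calprotectin, at 2.92. Lcn2, the siderophore-binding lipocalin, stood at 376 CPM with JAK2V617F and 45.7 with JAK2WT (2.79). The list of secondary and later granule genes, called secondary-granule genes below, also holds S100a8. Of its 11 measured genes, 9 were higher and 0 lower, with a median log2 ratio of 2.39 beside 0.03 for all genes.

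A minority of the members carried several of these late-granule genes. Cells with at least 3 of Ltf, Camp, Ngp, Lcn2 and Chil3 detected were 95 of the 1014 deeper members in Gli1 knockout JAK2V617F, 78 of 660 in wild type JAK2V617F, 25 of 634 in Gli1 knockout JAK2WT and 68 of 619 in wild type JAK2WT. Without them, and without cells holding at least 0.5% of UMIs from basophil and mast cell genes, 0 of 6 measured secondary-granule genes passed in the Gli1 knockout comparison and their median was -0.037. Leaving these cells out lowers the genes by construction. In members of 5000 to 20000 UMIs the median was -0.12 and S100a8 had a log2 ratio of -0.17. The 18 deeper members of Gli1 knockout JAK2V617F with a GFP UMI had S100a8 at 46739 CPM, against 1481 in the other deeper members. Lcn2 stood at 6097 CPM in these 18 cells, against 211. In wild type JAK2V617F 18 such cells had S100a8 at 13439 CPM against 2575, and Lcn2 at 2015 against 417. In wild type JAK2WT 16 such cells had S100a8 at 7618 CPM against 7999, and Lcn2 at 32.1 against 101. Both levels with JAK2V617F thus rest in part on few cells. S100a8 was also found in T and NK marked cells: thinned to 2000 UMIs, it was detected in 20.1% of members and 42.6% of T and NK marked cells in Gli1 knockout JAK2V617F, and in 13.1% and 21.7% in Gli1 knockout JAK2WT. The share in members was below that in T and NK marked cells, so the spread of S100a8 over members is not read as expression in these libraries. How much of it was free RNA was not tested.

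Immediate early and heat shock genes, taken as 1 list, were higher as a group with JAK2V617F in Gli1 knockout members. Of 19 measured, 9 were higher and 1, the heat shock gene Hspa1a (-1.61), was lower. The median log2 ratio was 0.53 beside 0.03 for all genes. Of the immediate early genes, Fos stood at 189 CPM (183 to 194) with JAK2V617F and 83.8 (79.8 to 88.1) with JAK2WT (1.08). Egr1 had a log2 ratio of 1.04 and Dusp1, a phosphatase gene of the same response, 0.82. In wild type members 3 of 18 were higher (Hspa8, Junb and Ier3) and 1 lower (Hspa1b), and Fos stood at 224 CPM with JAK2V617F and 151 with JAK2WT. These genes also respond to tissue handling, and its part was not tested. Junb (0.76), the cytokine receptor gene Csf2rb (0.72), Ier3 (1.01) and Ifitm3 (0.86) were higher as well. Among lower genes, Alas1 had a log2 ratio of -0.54 and Mki67, a proliferation gene, -0.50, both short of 1.5-fold, and 0 of 28 measured G2 and mitosis genes passed (median -0.16).

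The 2 JAK2V617F comparisons share no library, and some genes passed in both. Over the deeper members 22 genes were higher in both, which is 4.69% of those higher in wild type and 34.9% of those higher in Gli1 knockout members. Another 12 were lower in both (5.02% and 60% of the lower genes), and 6 passed in opposite directions. Without the secondary-granule and basophil marked cells 13 were higher in both, 13 lower in both and 0 opposite. The shared higher genes included Ifitm1, Ifitm3, Ifitm6, Pim1, Junb, Ier3, Csf2rb, the matrix protein gene Emilin2 and Plscr1, a phospholipid scramblase gene induced by interferon. The shared lower genes included Ly6c2, Cd74, Jchain and Lars2, a mitochondrial leucyl-tRNA synthetase gene.

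**Figure D5:**
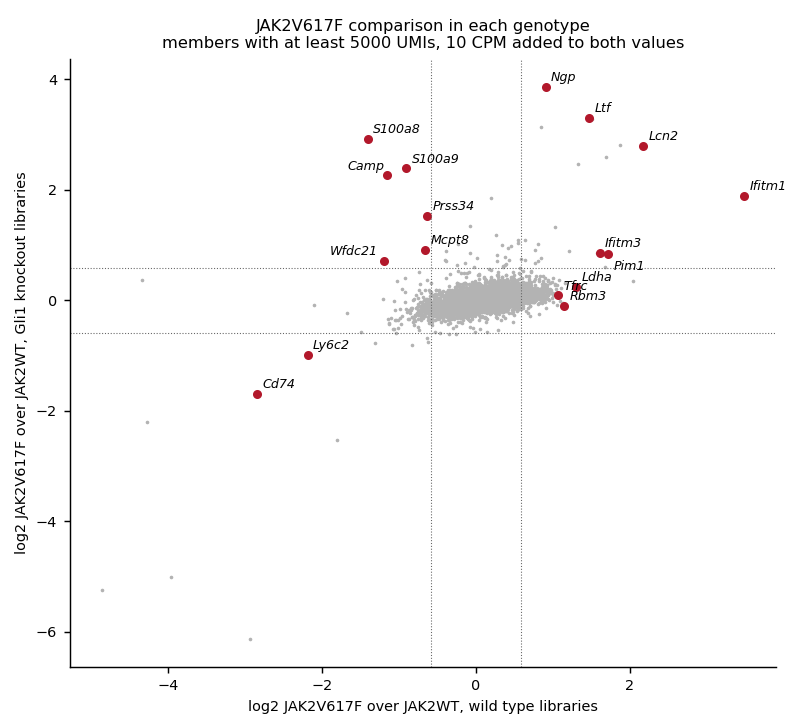
JAK2V617F over JAK2WT in members with at least 5000 UMIs. Each point is a gene, with its log2 ratio in wild type members on the horizontal axis and in Gli1 knockout members on the vertical axis, and dotted lines mark 1.5-fold. Ifitm1 lies high on both axes (3.48 and 1.89), and S100a8 lies at -1.41 in wild type and 2.92 in Gli1 knockout members.

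Between genotypes with JAK2V617F, few genes passed 1.5-fold. Over all members 61 genes were higher in Gli1 knockout (1.08% of 5673) and 33 lower (0.582%), and over the deeper members 57 were higher (1.01% of 5650) and 35 lower (0.619%). The comparison shares its Gli1 knockout library and its wild type library with those above. Tpm3-rs7, a retrogene copy of tropomyosin 3, stood at 149 CPM (144 to 154) in Gli1 knockout JAK2V617F, 5.30 (4.18 to 6.63) in wild type JAK2V617F, 152 (146 to 157) in Gli1 knockout JAK2WT and 5.00 (3.79 to 6.48) in wild type JAK2WT. Its reads can be split with those of Tpm3, so its level is uncertain. The same pattern by genotype held for Hebp1, a haem-binding protein gene, at 87.1 CPM with JAK2V617F and 104 with JAK2WT in Gli1 knockout, and 12.2 with JAK2V617F and 13.7 with JAK2WT in wild type members. The MHC class I gene H2-D1 stood at 1946 CPM with JAK2V617F and 1745 with JAK2WT in Gli1 knockout, and 1006 with JAK2V617F and 725 with JAK2WT in wild type members. The reverse held for the tetraspanin gene Tspan32, at 37.7 CPM with JAK2V617F and 36.1 with JAK2WT in Gli1 knockout, and 109 with JAK2V617F and 97.6 with JAK2WT in wild type members. H2-D1 has close copies among its family whose reads can be split.

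Genotype came with the sex of the donor cells. A UMI of a Y-linked gene was found in 860 of 1014 deeper members of Gli1 knockout JAK2V617F and 590 of 634 of Gli1 knockout JAK2WT, and in 0 wild type ones. Xist, transcribed from the inactive X chromosome, was detected in 652 of 660 deeper members of wild type JAK2V617F and 619 of 619 of wild type JAK2WT, and in 4 of Gli1 knockout JAK2V617F and 7 of Gli1 knockout JAK2WT. Loss of Gli1 and donor sex cannot be told apart in any genotype comparison.

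Other genes differed between genotypes with JAK2V617F and not in the same way with JAK2WT. Tfrc, the transferrin receptor gene, stood at 54.9 CPM (52.0 to 58.0) in Gli1 knockout JAK2V617F, 134 (128 to 140) in wild type JAK2V617F, 50.8 (47.6 to 54.1) in Gli1 knockout JAK2WT and 58.5 (54.1 to 63.1) in wild type JAK2WT. The wild type JAK2V617F library alone was high among the 4. Rbm3, a cold-inducible RNA-binding protein gene on the X chromosome, stood at 781 CPM with JAK2V617F and 837 with JAK2WT in Gli1 knockout, and 1455 with JAK2V617F and 653 with JAK2WT in wild type members. The metallothionein gene Mt1 stood at 266 CPM with JAK2V617F and 344 with JAK2WT in Gli1 knockout, and 581 with JAK2V617F and 461 with JAK2WT in wild type members. Tfrc is abundant in erythroid precursors, and erythroid markers were highest in the same library (862 CPM, against 78.4 in Gli1 knockout JAK2V617F). Cholesterol synthesis had 0 of 13 genes higher and 2 lower in Gli1 knockout JAK2V617F (median -0.43), Idi1 (-0.76) and Fdps (-0.70), the enzymes of successive isoprenoid steps.

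Sox4 and several basophil genes were higher past 1.5-fold in Gli1 knockout than in wild type members with JAK2V617F. Cd34 stood at 233 CPM (227 to 239) in Gli1 knockout JAK2V617F, 153 (147 to 159) in wild type JAK2V617F, 183 (177 to 189) in Gli1 knockout JAK2WT and 90.9 (85.5 to 96.6) in wild type JAK2WT. Sox4 stood at 172 CPM with JAK2V617F and 136 with JAK2WT in Gli1 knockout, and 107 with JAK2V617F and 73.8 with JAK2WT in wild type members, with a log2 ratio of 0.64 between genotypes with JAK2V617F. Of 16 early progenitor genes 1, Sox4, was higher past 1.5-fold and 0 lower (median 0.31 beside -0.02 for all genes). Cd34, with a log2 ratio of 0.58, did not pass, and Ifitm1 of the same list had -0.47. Of 7 basophil and mast cell genes, 5 were higher (median 0.78), with the basophil protease genes Prss34 at 745 CPM in Gli1 knockout and 246 in wild type JAK2V617F and Mcpt8 at 331 CPM in Gli1 knockout and 161 in wild type JAK2V617F. Thinned to 2000 UMIs, Prss34 was detected in 6.51% of members and 6.60% of T and NK marked cells in Gli1 knockout JAK2V617F, and in 3.33% of both in wild type JAK2V617F (16.4% and 5.76% of members unthinned). The shares in members were no higher than those in T and NK marked cells, so the spread of Prss34 over members is not read as expression. Cells with at least 0.5% of UMIs from such genes were 65 (6.41%) of the deeper members in Gli1 knockout JAK2V617F, 26 (3.94%) in wild type JAK2V617F, 16 (2.52%) in Gli1 knockout JAK2WT and 29 (4.69%) in wild type JAK2WT, and without them and the secondary-granule marked cells 1 of 4 measured basophil genes, Cpa3, was higher. Chil3, a chitinase-like protein gene of late neutrophil precursors, was lower at 17.0 CPM in Gli1 knockout and 103 in wild type JAK2V617F.

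With JAK2WT more genes differed between genotypes than with JAK2V617F, and the difference in number was not tested. This comparison shares its libraries with the JAK2V617F comparisons. Over all members 211 were higher in Gli1 knockout (3.59% of 5877) and 254 lower (4.32%), and over the deeper members 167 were higher (2.92% of 5716) and 122 lower (2.13%). Scaled by the median of ratios these counts were 139 higher and 310 lower, and 105 higher and 162 lower. Of 12 measured secondary-granule genes 10 were lower and 0 higher, with a median log2 ratio of -1.97. S100a8 stood at 354 CPM (346 to 363) in Gli1 knockout and 7990 (7938 to 8042) in wild type JAK2WT (-4.46), Camp at 159 and 1406 CPM (-3.07) and Ngp at 44.9 and 401 CPM (-2.90). Without the marked cells 5 of 9 were still lower and 0 higher, with a median of -1.03.

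A few genes stood highest in wild type JAK2WT members. Fcnb stood at 16.0 CPM (14.5 to 17.7) in Gli1 knockout JAK2V617F, 14.5 (12.6 to 16.6) in wild type JAK2V617F, 17.7 (15.9 to 19.8) in Gli1 knockout JAK2WT and 164 (157 to 172) in wild type JAK2WT. Thinned to 2000 UMIs it was detected in 17.1% of members and 0.938% of T and NK marked cells in wild type JAK2WT, and in 1.48% to 2.88% of members in the other libraries. Cd63 stood at 344 CPM with JAK2V617F and 237 with JAK2WT in Gli1 knockout, and 537 with JAK2V617F and 904 with JAK2WT in wild type members. Between genotypes with JAK2WT its log2 ratio was -1.89, and it was -1.80, -1.74, -1.80 and -1.78 within the bins of granule share. Wfdc21, a secreted protease-inhibitor-like gene, stood at 108 CPM with JAK2V617F and 61.5 with JAK2WT in Gli1 knockout, and 161 with JAK2V617F and 381 with JAK2WT in wild type members.

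Early progenitor genes were higher in Gli1 knockout members with JAK2WT: 9 of 15 passed and 0 were lower, with a median log2 ratio of 0.62 beside 0.07 for all genes. Over the same wild type JAK2WT library, wild type JAK2V617F members had 7 of 14 higher and 0 lower, with a median of 0.59 beside 0.11. The wild type JAK2WT library was thus low for this list in both comparisons. In Gli1 knockout JAK2WT over wild type JAK2WT, single genes were as follows. Cd34 had a log2 ratio of 0.93, Sox4 0.80 and Ifitm1 1.12. The median granule share was 2.74% in Gli1 knockout and 3.57% in wild type members. Within the bins of that share, from 0.5% to 1% up to 4% to 8%, the log2 ratio of Cd34 was 0.66, 0.53, 0.71 and 1.05. That of Sox4 was 0.71, 0.43, 0.44 and 0.90, and that of Ifitm1 0.39, 1.18, 1.13 and 0.80. All 3 genes were higher in Gli1 knockout members in each bin, and not every bin passed 1.5-fold. Alas1 was higher in Gli1 knockout members, at 490 CPM against 284 in wild type (0.77). The joint list of immediate early and heat shock genes had 2 of 18 higher, the heat shock genes Hspa1a and Hspa8, and 6 lower (median -0.22). Fos stood at 83.8 CPM in Gli1 knockout and 151 in wild type.

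Gli1 itself had 0 UMIs in the deeper members of all 4 libraries (upper bounds of 0.152 to 0.324 CPM), which leaves the knockout unchecked at the transcript level. Jak2 stood at 26.6 CPM (24.6 to 28.7) in Gli1 knockout JAK2V617F, 28.6 (26.0 to 31.5) in wild type JAK2V617F, 15.9 (14.1 to 17.8) in Gli1 knockout JAK2WT and 31.9 (28.8 to 35.4) in wild type JAK2WT, and a 3′ library does not separate the retroviral transcript from the mouse gene's own. Mif, the cytokine that binds Cd74, stood at 762 CPM with JAK2V617F and 874 with JAK2WT in Gli1 knockout, and 1012 with JAK2V617F and 845 with JAK2WT in wild type members. Of 8 measured interferon response genes, 0 were higher in either JAK2V617F comparison, and 1, Ifi27l2a (-1.39), was lower in wild type and 0 in Gli1 knockout members.

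GFP transcripts were too scarce to tell transduced members from others. A GFP UMI was found in 1.78% of the deeper members in Gli1 knockout JAK2V617F, 2.73% in wild type JAK2V617F, 0.158% in Gli1 knockout JAK2WT and 2.58% in wild type JAK2WT. Over all members, thinned to 2000 UMIs, the shares were 0.168% with JAK2V617F and 0 (0 to 0.529) with JAK2WT in Gli1 knockout, and 0.413% with JAK2V617F and 0.331% with JAK2WT in wild type members. Thinned in the same way, T and NK marked cells had a GFP UMI in 0 of 303 in Gli1 knockout JAK2V617F, 0 of 60 in wild type JAK2V617F, 0 of 161 in Gli1 knockout JAK2WT and 0.0938% of 1066 in wild type JAK2WT, with upper bounds of 0.522% to 5.96%. Unthinned their shares were 0.0890% to 1.52%. The levels above are therefore averages over transduced and untransduced cells in unknown proportion.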

How the data were processed

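Bone marrow cells were profiled with 10x Genomics Single Cell 3' v3.1 chemistry, per the labels' protocols. The submitters' processing notes name Cell Ranger 4.0.0, Seurat 4.0.4 and the build mm10, with no roles. The matrices as deposited hold counts: whole UMI counts for 31054 features (GFP among them) in 34200 barcodes, already called, of 4 libraries. Hashing tags were not analysed here, which leaves cells without a mouse of origin. Groups come from the sample titles. The members, gene lists and tests were chosen with earlier results of these data known.

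Passing cells and members followed the rule in the report. Doublets were scored with Scrublet in scanpy 1.11.5 (anndata 0.12.19, scikit-image 0.26.0) and removed only in an alternative, at 0.8% per 1000 barcodes. Counts were summed over members per library and turned into CPM, with exact Poisson 95% intervals, shares with exact Clopper-Pearson and ratios of shares with log-normal intervals. Log2 ratios had 10 CPM added. A gene was measured if its higher library reached 20 CPM and 30 counts, and was called past 1.5-fold. With 1 library per group there is no test and no p-value. The ratio step was tested on simulated data. The limit of 5000 UMIs, and the removal of cells with at least 3 of 5 secondary-granule genes or 0.5% basophil UMIs, were added after the data had been seen. Cells were thinned to 2000 UMIs without replacement where shares of cells with a UMI were compared.

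Named genes are the rule and marker genes, the monocyte genes, Gli1, Jak2, GFP, Mif and Cd74, the 8 highest and 8 lowest log2 ratios per comparison among genes of at least 100 CPM, the 3 highest and 3 lowest of each list quoted among genes of at least 50 CPM, and the 12 leading genes of members over other cells. Mitochondrial, ribosomal, predicted, haemoglobin, antigen receptor, Xist and Y-linked genes were not ranked. Other genes named in the text were chosen after their values were seen. Alternatives were other values added, filters, scalings, weights of cells, depths and granule limits. Python 3.11.15, numpy 2.4.6, scipy 1.17.1, pandas 2.3.3 and matplotlib 3.10.9 were used. Promoter windows are RefSeq's on GRCm38.p6, the assembly of mm10, and the bases printed end where annotated exons begin. Strand in counting is not given in the sources used here.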

Additional observations from a re-analysis of the deposited data

Results flagged for a closer look

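Genes that passed 1.5-fold in opposite directions in the 2 JAK2V617F comparisons were picked out for a closer look, and the difference between the comparisons was not tested. Over members with at least 5000 UMIs, Camp had a log2 ratio of JAK2V617F to JAK2WT of 2.26 in Gli1 knockout and -1.15 in wild type members. S100a8 had 2.92 in Gli1 knockout and -1.41 in wild type members, and S100a9, its partner in calprotectin, had 2.39 in Gli1 knockout and -0.91 in wild type members. Wfdc21 had 0.72 in Gli1 knockout and -1.20 in wild type members. The basophil protease genes Mcpt8 and Prss34 had 0.92 and 1.53 in Gli1 knockout members, against -0.66 and -0.63 in wild type members. Without the secondary-granule and basophil marked cells, S100a8 had 0.06 in Gli1 knockout and -3.79 in wild type members, and 0 genes passed in opposite directions. The part of free RNA in these ratios was not tested.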

How the results depend on the processing

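No paired analysis was possible because each group is 1 library and no replicate numbers are shared, and no replicate could be left out. Values here are over all members unless a depth is given. The share of members moved with every alternative to the rule. With at least 1000 genes and under 5% mitochondrial UMIs it was 18.8% in Gli1 knockout JAK2V617F, 19.6% in Gli1 knockout JAK2WT and 23.2% in wild type JAK2WT. With a granule share of at least 1% it was 13.3% in Gli1 knockout JAK2V617F, 16.3% in wild type JAK2V617F, 30.7% in Gli1 knockout JAK2WT and 23.3% in wild type JAK2WT. With cells thinned to 2000 UMIs before the rule it was 30.4% in Gli1 knockout JAK2V617F, 30.1% in wild type JAK2V617F, 37.4% in Gli1 knockout JAK2WT and 33.9% in wild type JAK2WT. With lymphoid, plasma cell, plasmacytoid and erythroid marked cells left out of members and passing cells alike, it was 28.7% in Gli1 knockout JAK2V617F, 30.8% in wild type JAK2V617F, 54.8% in Gli1 knockout JAK2WT and 67.7% in wild type JAK2WT. In Gli1 knockout JAK2WT 3893 of 3999 passing cells and 1356 of 1397 members carried plasma cell markers, so few cells were left there. In wild type JAK2WT 6882 of 7987 passing cells and 2735 of 3288 members carried them. With at least 5000 UMIs it was 20.1% in Gli1 knockout JAK2V617F, 21.7% in Gli1 knockout JAK2WT and 17.0% in wild type JAK2WT, and with doublet scores used it was 39.6% in wild type JAK2WT.

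In that sequence of alternatives, the ratio of JAK2V617F to JAK2WT shares in wild type marrow was 0.967 with the stricter cell filter, 0.697 at the 1% granule share, 0.888 when thinned, 0.455 without the cells marked as other types and, turned round, 1.34 with at least 5000 UMIs. In Gli1 knockout marrow it was 0.957, 0.432, 0.811, 0.524 and 0.926 under these alternatives. Between genotypes with JAK2V617F the ratio was 0.835 with the stricter filter, 0.815 at 1%, 0.933 without the cells marked as other types and 0.883 with at least 5000 UMIs. With JAK2WT this ratio turned round to 1.32 at 1%, 1.10 when thinned and 1.28 with at least 5000 UMIs.

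Counts of genes past 1.5-fold depended on the value added before the ratio and on the filter. For JAK2V617F over JAK2WT in wild type members, 876 genes were higher and 634 lower with 1 CPM added, 148 and 110 with 50 CPM added, and 256 and 82 at a minimum of 100 CPM. There, 324 were higher under the median of ratios, and lower genes numbered 822 by the mean of per-cell CPM, 239 with at least 5000 UMIs and 232 when the secondary-granule and basophil marked cells were also left out. For JAK2V617F over JAK2WT in Gli1 knockout members, genes higher numbered 31 with 50 CPM added, 102 without a filter and 36 without the marked cells, and 29 were higher and 8 lower at a minimum of 100 CPM. By the mean of per-cell CPM 304 were higher and 40 lower, thinned to 2000 UMIs 164 and 66, and 88 were lower among members of 5000 to 20000 UMIs. For Gli1 knockout over wild type with JAK2V617F, genes higher and lower numbered 116 and 64 with 1 CPM added, 22 and 17 with 50 CPM, 16 and 15 at 100 CPM, 145 and 83 by the mean per cell, and 138 and 84 when thinned. Lower genes numbered 57 without a filter and 70 among members of 5000 to 20000 UMIs. For Gli1 knockout over wild type with JAK2WT, genes higher and lower numbered 402 and 430 with 1 CPM added, 42 and 91 with 50 CPM, 94 and 61 at 100 CPM, 430 and 1007 by the mean per cell, 405 and 479 when thinned, and 133 and 87 without the marked cells. There, 139 were higher under the median of ratios, 372 were higher among members of 5000 to 20000 UMIs, and lower genes numbered 384 without a filter, 167 at the 1% granule share and 122 with at least 5000 UMIs.

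The log2 ratio of Elane with JAK2V617F in wild type members turned to 0.051 by the mean of per-cell CPM. In Gli1 knockout members the median log2 ratio of secondary-granule genes turned to -0.12 among members of 5000 to 20000 UMIs and to -0.037 without the marked cells, and S100a8 turned to -0.17 among members of 5000 to 20000 UMIs. Of 524 values of 48 gene ratios, 518 kept their direction and 6 did not, and of 182 values of 14 group medians 174 kept it and 8 did not. The share with a GFP UMI was 0.168% in Gli1 knockout JAK2V617F, 0.413% in wild type JAK2V617F, 0 in Gli1 knockout JAK2WT and 0.331% in wild type JAK2WT when thinned, and 2.58% in wild type JAK2WT with at least 5000 UMIs. The causes of these shifts were not tested. With 1 library per group, counting intervals leave out the spread between mice, and depth, loading and free RNA differ between libraries.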

Other observations

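Eosinophil granule genes were carried by members of every library. Prg2, the gene of eosinophil major basic protein, stood at 495 CPM (486 to 504) in Gli1 knockout JAK2V617F, 486 (475 to 498) in wild type JAK2V617F, 47.3 (44.2 to 50.5) in Gli1 knockout JAK2WT and 266 (256 to 275) in wild type JAK2WT members with at least 5000 UMIs. Prg3, a further member of that family, stood at 74.8 CPM with JAK2V617F and 13.5 with JAK2WT in Gli1 knockout, and 43.7 with JAK2V617F and 37.1 with JAK2WT in wild type members. The Gli1 knockout JAK2WT library was the lowest for both genes. Apoe, the apolipoprotein E gene, stood at 174 CPM (169 to 179) in Gli1 knockout JAK2V617F, 50.9 (47.3 to 54.8) in wild type JAK2V617F, 91.5 (87.3 to 96.0) in Gli1 knockout JAK2WT and 54.2 in wild type JAK2WT members, so the Gli1 knockout JAK2V617F library was the highest. Hist2h2ac, a replication-dependent histone gene, stood at 14.6 CPM with JAK2V617F and 18.3 with JAK2WT in Gli1 knockout, and 90.8 with JAK2V617F and 95.7 with JAK2WT in wild type members.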
